A study of Bos taurus with 20 samples.

Results

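The transcripts of 7 glycolytic enzymes, PKM, GAPDH, LDHA, ENO1, PGK1, TPI1 and ALDOA, and of NDRG1, a gene known to be induced by low oxygen, were followed in bovine embryos at day 14. The genes were picked by symbol, and 8 of 8 were found among the 15542 genes of the deposited table. All 8 passed the filter of at least 10 reads in at least 2 libraries, as did 10599 genes in all. The study asked how vitrification, a cryopreservation that cools fast enough to form a glass, relates to gene expression of the elongating embryo. Its 20 RNA samples were 6 fresh whole embryos, 5 samples of fresh trophectoderm (TE), 2 vitrified whole embryos and 7 samples of vitrified TE. Fresh embryos had not been vitrified, and the embryos of all 4 groups had been recovered by flushing the uterus. TE is the outer epithelium that forms the placenta, and a whole embryo also has an epiblast, the source of the fetus, and a hypoblast, the source of yolk sac lining. Breed, age of the dams and stage at vitrification were not given in the sources used here, nor was which embryo gave which sample.

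Glycolysis splits glucose into pyruvate in the cytosol. Aldolase (ALDOA) cuts the 6-carbon sugar, triosephosphate isomerase (TPI1) interconverts the products, and GAPDH, PGK1, ENO1 and pyruvate kinase (PKM) carry them to pyruvate and yield ATP. Lactate dehydrogenase, built of LDHA and LDHB subunits, turns pyruvate into lactate and regenerates NAD. Many of these genes, and NDRG1 with them, are targets of the hypoxia-inducible factor, which is stable when oxygen is low. The elongating ruminant conceptus is known for a high uptake of glucose.

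Levels are given in RPKM, reads per kilobase of gene scaled to the reads of the library. Gene length here means genomic span with introns, so levels of different genes were not compared. Splice forms, such as those of PKM, are not separated, and how reads shared with processed pseudogenes were counted was not given in the sources used here, which makes the levels of GAPDH, PGK1, TPI1, ENO1 and LDHA less certain. The reference positions on the UMD3.1 assembly are chromosome 25, 26470488 to 26475202 (ALDOA), chromosome 5, 103942403 to 103945759 (TPI1), chromosome 5, 104237902 to 104241979 (GAPDH), and chromosome X, 79282708 to 79305386 (PGK1). The others are chromosome 16, 45401695 to 45416462 (ENO1), chromosome 10, 18965984 to 18992445 (PKM), chromosome 29, 26543861 to 26554318 (LDHA), and chromosome 14, 9109762 to 9165926 (NDRG1). ENO1 and NDRG1 lie on the plus strand and the others on the minus strand. All are listed as protein coding.

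Libraries held 6.01 to 14.5 M reads. The 5 fresh TE libraries stood apart: reads in listed genes made up 38.0 ± 2.83% (SD, n = 5) there and 57.5 to 63.9% in the other 15, and mitochondrial messenger RNA made up 1.23 ± 0.144% of listed-gene reads there and 3.01 to 9.87% in the others. Fresh TE 1 and 2 were close to counting noise apart, with a chi-square per degree of freedom of 1.88, and so were fresh TE 3 and 4, at 1.48. For the remaining 8 fresh TE pairs it was 11.9 to 22.6. Both close pairs entered as separate libraries, with their averages as an alternative. The library labelled vitrified whole embryo 1 was low in 2 defining epiblast genes, at 0.316 RPKM of POU5F1 and 0 of NANOG, against 20.6 and 4.22 in vitrified whole embryo 2 and at least 1.05 and 0.381 in the fresh whole embryos. Its SOX2, at 0.0813 RPKM, and that of fresh whole embryo 6, at 0, were both close to the floor. The sum of vitrified whole embryo 1 over the 9 epiblast markers found was 6.13 RPKM. That lay within the 4.03 to 11.9 of the fresh whole embryos and also within the 3.87 to 8.47 of vitrified TE. The sum thus does not tell a whole embryo from vitrified TE here. The changes of the 8 genes between vitrified and fresh whole embryos, and the changes of other genes called there, are given also with a vitrified whole embryo left out, the latter where that ended the call or the value is quoted. No batch is named in the labels, and how samples within a group relate is not said, so p-values measure only the spread between these samples, which may be technical. In bulk RNA, fewer cells of a type and less RNA per cell cannot be told apart.

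In vitrified TE, compared with fresh TE, the 8 genes went in both directions. PKM stood 15.9-fold, GAPDH 11.2-fold, ENO1 3.37-fold and ALDOA 3.01-fold higher as a ratio of mean RPKM, while NDRG1 was 5.82-fold and LDHA 2.53-fold lower. TPI1 and PGK1 changed least, at ratios of 1.35 and 0.758. The limma test on log2(RPKM + 1) called 5 of the 8 higher and 3 lower, against a background of 69.0% of all 10599 genes called higher and 6.66% called lower. Their median change in log2(RPKM + 1) was 1.003, and that of all genes 0.18. The added 1 shrinks changes of genes at low RPKM, and with a pseudocount of 0.1 the medians were 1.02 and 0.63. A call of higher is thus the common one in this comparison, and the count of 5 among 8 is near the background share.

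The scaling of the libraries bears on these directions. As a ratio of mean RPKM, with nothing added, the median gene stood 2.45-fold higher in vitrified than in fresh TE as deposited, a log2 shift of 1.29. It was 1.58-fold higher when scaled to the reads in listed genes (listed-gene scaling) and 1.13-fold under median-ratio scaling. Set against the median gene as deposited, PKM was 6.51 times as high, GAPDH 4.58 times, ENO1 1.38 times and ALDOA 1.23 times. TPI1 stood at 0.550, PGK1 at 0.310, LDHA at 0.162 and NDRG1 at 0.0702 of the change of the median gene. With median-ratio scaling 4 of the 8 were called higher and 4 lower, where 35.1% and 27.5% of all genes were called. Listed-gene scaling gave 4 higher and 3 lower (49.2% and 15.7% of all genes), and quantile normalization 4 and 3 (26.2% and 38.7%).

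**Figure D1:**
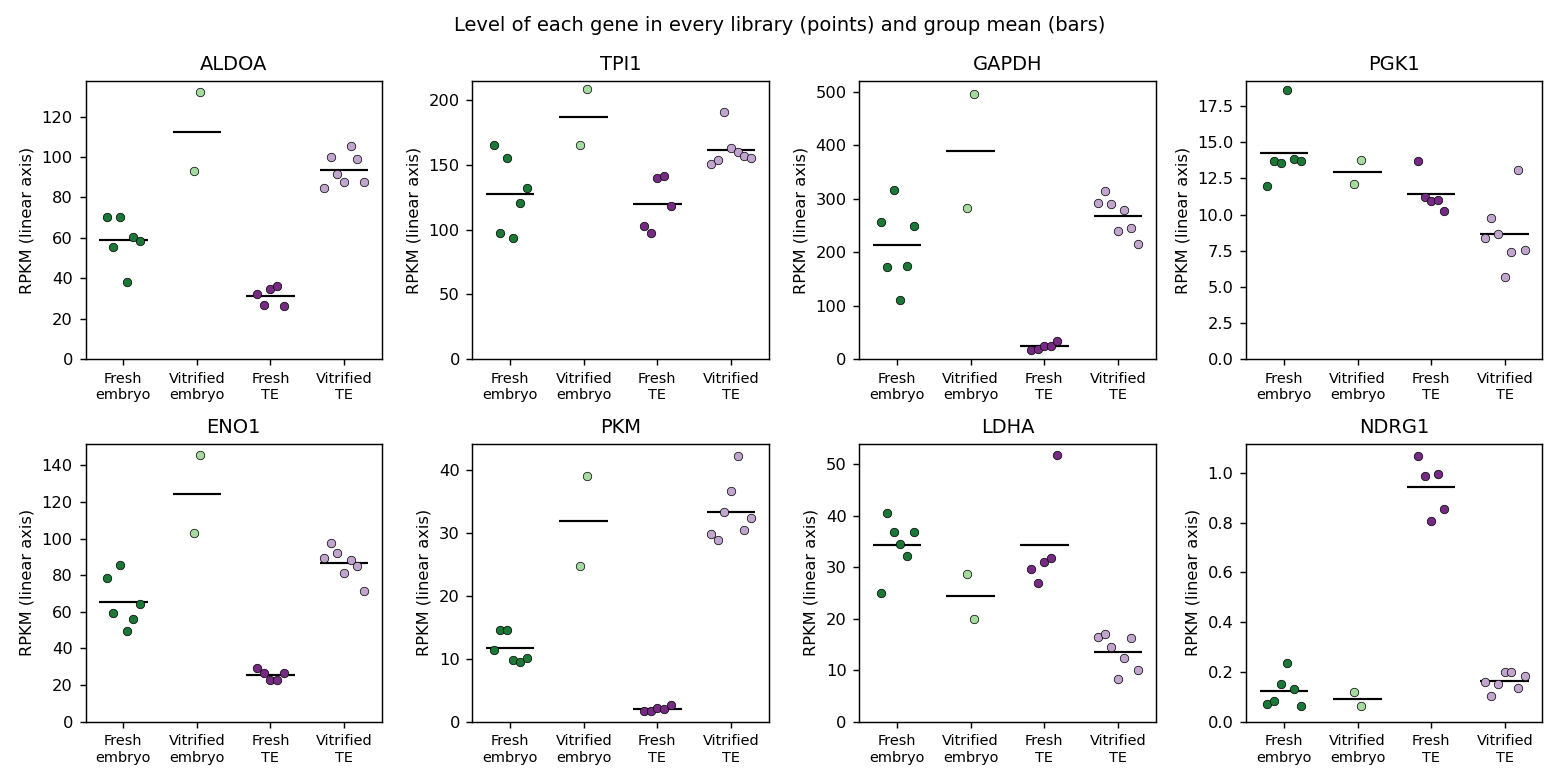
RPKM of each of the 8 genes (vertical axes, linear, each with its own range) in every library (points) of the 4 groups, with the group mean as a bar. PKM and GAPDH of fresh TE lie below all other libraries, at 1.70 to 2.70 and 16.9 to 34.0 RPKM, and NDRG1 of fresh TE lies above all others, at 0.807 to 1.07 RPKM.

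ALDOA stood at 32.4, 26.6, 34.6, 36.3 and 26.1 RPKM in fresh TE 1 to 5. In vitrified TE its lowest, median and highest levels were 84.5, 91.8 and 105 RPKM. Every vitrified TE sample thus lay above every fresh one. ALDOA rose by 1.57 (SE 0.142) on the log2 scale (limma, adjusted p = 1.2e-08), and by 0.47 with median-ratio scaling (adjusted p = 0.0028).

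TPI1 is the gene whose direction depended on the scaling. Its levels were 103, 97.3, 140, 141 and 119 RPKM in fresh TE, and 151, 157 and 191 (lowest, median, highest) in vitrified TE. The groups did not overlap as deposited, and TPI1 was 0.44 higher (SE 0.145, limma adjusted p = 0.011). The sign turned to -0.19 with listed-gene scaling (adjusted p = 0.2), to -0.67 with median-ratio scaling (adjusted p = 1.2e-04) and to -0.026 with quantile normalization (adjusted p = 0.85).

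GAPDH, which oxidizes glyceraldehyde phosphate and is often used as a reference transcript, had 16.9, 18.6, 24.9, 25.1 and 34.0 RPKM in fresh TE. Vitrified TE had 215, 278 and 315 RPKM as lowest, median and highest. Each vitrified TE library exceeded the highest fresh one several times over. The limma change was 3.46 (SE 0.227, adjusted p = 1.9e-10), and 2.37 with median-ratio scaling. PGK1, the enzyme of the next step, moved the other way. Fresh TE held 13.7, 11.2, 11.0, 11.0 and 10.2 RPKM of PGK1, and vitrified TE 5.71, 8.40 and 13.1 as lowest, median and highest. The highest vitrified TE sample lay within the fresh range, and PGK1 was the only one of the 8 genes whose TE groups overlapped. PGK1 fell by 0.39 (SE 0.145, limma adjusted p = 0.021) as deposited and by 1.42 with median-ratio scaling (adjusted p = 5.5e-08). The call as deposited was lost without fresh TE 1 (-0.33, adjusted p = 0.063) and with the near-identical fresh TE libraries averaged (-0.37, adjusted p = 0.073).

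ENO1, the enolase, had 29.3, 26.3, 22.9, 22.9 and 26.8 RPKM in fresh TE and 71.5, 88.2 and 97.6 in vitrified TE (lowest, median, highest), without overlap. It rose by 1.71 (SE 0.134, limma adjusted p = 1.7e-09), and by 0.62 with median-ratio scaling (adjusted p = 1.5e-04). PKM, which makes pyruvate, had the highest ratio of the 8 genes. Its levels were 1.70, 1.78, 2.19, 2.10 and 2.70 RPKM in fresh TE, from 278 to 478 reads, and 28.9, 32.4 and 42.1 RPKM in vitrified TE. PKM rose by 3.47 (SE 0.140, limma adjusted p = 7e-13), and by 2.58 with median-ratio scaling. On the log2(RPKM + 1) scale, which shrinks changes of genes at low RPKM, 57 of the 10599 genes exceeded the change of 3.47.

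LDHA, whose subunit acts after pyruvate, fell. Fresh TE had 29.6, 27.0, 31.0, 31.8 and 51.8 RPKM of LDHA, and vitrified TE 8.29, 14.5 and 17.0 (lowest, median, highest). All vitrified TE samples lay below all fresh ones. LDHA changed by -1.27 in limma (SE 0.187, adjusted p = 5.9e-06), and -2.35 with median-ratio scaling. LDHB, which encodes the other common subunit, fell as well, from 30.1 ± 3.04 RPKM (SD, n = 5) to 18.0 ± 2.68 (n = 7), a limma change of -0.72 (adjusted p = 1.4e-04).

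NDRG1 stood at 1.07, 0.987, 0.807, 0.993 and 0.854 RPKM in fresh TE, from 321 to 406 reads, and at 0.102, 0.158 and 0.202 in vitrified TE (lowest, median, highest), from 52 to 101 reads. Every fresh TE sample lay above every vitrified one. NDRG1 fell by 0.74 (SE 0.0415, limma adjusted p = 2.7e-11), and by 1.22 with median-ratio scaling. The log2(RPKM + 1) scale understates a change at this level, and with a pseudocount of 0.1 the change was -1.999. Of the 8 genes, 5 were higher and 2 lower in TE without any overlap between vitrified and fresh samples, where 54.6% and 3.96% of all genes were.

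Some markers of other cell types also differed between the TE groups, most clearly those of the hypoblast. Marker calls are read against the 69.0% higher and 6.66% lower of all genes, or 35.1% and 27.5% with median-ratio scaling. All 7 hypoblast markers tested were called higher in vitrified TE, also with median-ratio scaling. The 8 found summed to 150 to 322 RPKM in fresh TE and 588 to 1251 in vitrified TE. Of 7 epiblast markers tested 2 were called higher, or 1 with median-ratio scaling, with sums of 1.51 to 4.01 and 3.87 to 8.47 RPKM. NANOG reached at most 0.0741 RPKM in fresh TE and 0.174 in vitrified TE, with a lowest level of 0 in both. The 10 TE markers summed to 2409 to 3181 RPKM in fresh TE, against 2564 to 3686 after vitrification, with KRT8 at 163 ± 16.9 and 859 ± 113. Of these markers 7 were called higher and 2 lower, or 4 and 4 with median-ratio scaling. The 6 blood markers found summed to 0.463 to 1.15 and 4.05 to 6.70 RPKM, and the 4 endometrial markers found to 1.10 to 2.99 and 1.34 to 4.86. Of 4 blood markers tested 3 were called higher and 0 lower, or 2 and 1 with median-ratio scaling. Of 3 endometrial markers tested 0 passed, and the endometrial sums overlapped. The part of these markers, and of the low mitochondrial and listed shares of fresh TE, in the changes of the 8 genes was not tested.

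In whole embryos the same 5 enzymes that were higher in vitrified TE, PKM, ALDOA, ENO1, GAPDH and TPI1, were called higher after vitrification, with smaller ratios. Mean RPKM was 2.73-fold higher for PKM, 1.91-fold for ALDOA, 1.90-fold for ENO1, 1.83-fold for GAPDH and 1.47-fold for TPI1. LDHA, PGK1 and NDRG1 did not pass. Among all genes 26.9% were called higher and 3.94% lower. The median change in log2(RPKM + 1) was 0.73 over the 8 genes and 0.057 over all genes, or 0.74 and 0.22 with a pseudocount of 0.1. As a ratio of mean RPKM, the median gene stood 1.30-fold higher as deposited. In whole embryos too some markers differed. TE markers summed to 1802 to 2570 RPKM in fresh and 2889 and 3406 in vitrified whole embryos, without overlap. Of the 10 TE markers 6 were called higher, or 4 with median-ratio scaling, and fewer than 6 with either vitrified whole embryo left out. Hypoblast markers summed to 561 to 989 RPKM in fresh whole embryos, and to 690.0 and 199.9 in vitrified whole embryos 1 and 2. Of 7 hypoblast markers tested 2 were called higher and 0 lower, or 1 and 2 with median-ratio scaling. Epiblast markers summed to 4.03 to 11.9 RPKM in fresh whole embryos, and to 6.13 and 31.9 in vitrified whole embryos 1 and 2. Of 7 epiblast markers tested 2 were called higher, or 1 with median-ratio scaling, and the count depended on which vitrified whole embryo was left out. The part of the TE, hypoblast and epiblast markers in the changes of the 8 genes was not tested. No member was called lower by limma, nor did any reach an unadjusted p under 0.05 in that direction, while 1 (LDHA) was called lower and 3 higher with median-ratio scaling (6.98% and 10.6% of all genes). Listed-gene scaling and quantile normalization gave 5 higher and 0 lower each, where 21.6% and 8.68% of all genes were higher and 4.25% and 6.14% lower.

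PKM stood at 9.55, 10.8 and 14.6 RPKM (lowest, median, highest) in the 6 fresh whole embryos and at 24.8 and 39.1 in the 2 vitrified ones, without overlap. It rose by 1.36 (SE 0.195, limma adjusted p = 9.6e-05), by 1.68 without vitrified whole embryo 1 (adjusted p = 6.4e-05) and by 1.04 without vitrified whole embryo 2 (adjusted p = 0.011). PKM was the only one of the 8 genes whose call held in both cases with only 1 vitrified whole embryo left. With 1 left, that lone sample was assumed to vary like the other groups.

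ALDOA and ENO1 did not overlap between fresh and vitrified whole embryos either. ALDOA had 38.3, 59.4 and 70.3 RPKM in fresh whole embryos and 92.9 and 132 in the vitrified ones (limma 0.93, SE 0.198, adjusted p = 0.0018). ENO1 had 49.7, 61.7 and 85.6 RPKM in fresh whole embryos against 103 and 146 in the vitrified pair (0.92, SE 0.187, adjusted p = 0.0013). Without vitrified whole embryo 2, ALDOA was at 0.68 (adjusted p = 0.091) and ENO1 at 0.67 (adjusted p = 0.076), so both calls were lost. Without vitrified whole embryo 1 they stood at 1.18 (adjusted p = 0.002) and 1.16 (adjusted p = 0.0014). Thus 3 of the 8 genes were higher without overlap and 0 lower, where 29.4% and 6.54% of all genes were.

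GAPDH and TPI1 overlapped between the groups. GAPDH had 109.8, 212 and 316 RPKM in fresh whole embryos and 283 and 496 in vitrified ones, a limma change of 0.89 (SE 0.316, adjusted p = 0.039). TPI1 had 93.5, 127 and 166 RPKM against 165 and 209, a change of 0.57 (SE 0.203, adjusted p = 0.038). With median-ratio scaling neither passed, at 0.56 (adjusted p = 0.2) and 0.24 (adjusted p = 0.38), nor did either pass without vitrified whole embryo 2, at 0.49 (adjusted p = 0.48) and 0.40 (adjusted p = 0.36). Without vitrified whole embryo 1 they stood at 1.29 (adjusted p = 0.022) and 0.74 (adjusted p = 0.046). Both calls were also lost without fresh whole embryo 4, at 0.72 (adjusted p = 0.055) and 0.49 (adjusted p = 0.06), without fresh whole embryo 2 (adjusted p = 0.064 and 0.069) and without fresh whole embryo 5 (adjusted p = 0.063 and 0.058).

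LDHA had 25.1, 35.7 and 40.5 RPKM in fresh whole embryos and 28.6 and 20.01 in vitrified ones, a limma change of -0.49 that did not pass (SE 0.261, adjusted p = 0.17). It passed with median-ratio scaling, at -0.80 (adjusted p = 0.035). LDHA was at -0.73 (adjusted p = 0.12) without vitrified whole embryo 1 and at -0.24 (adjusted p = 0.71) without vitrified whole embryo 2. PGK1, at 14.2 ± 2.25 RPKM in 6 fresh and 12.1 and 13.8 in the vitrified whole embryos, was at -0.12 (adjusted p = 0.7), and at -0.030 and -0.20 with the first or the second vitrified whole embryo left out (adjusted p = 0.95 and 0.69). NDRG1 stood at 0.0646, 0.107 and 0.237 RPKM in fresh whole embryos and at 0.118 and 0.0616 in vitrified ones, at -0.042 (adjusted p = 0.62), with 31 to 98 reads per library. With vitrified whole embryo 1 or 2 left out NDRG1 was at -0.079 or -0.0041 (adjusted p = 0.48 and 0.98). No shift of NDRG1 in whole embryos was detectable at this depth.

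**Figure D2:**
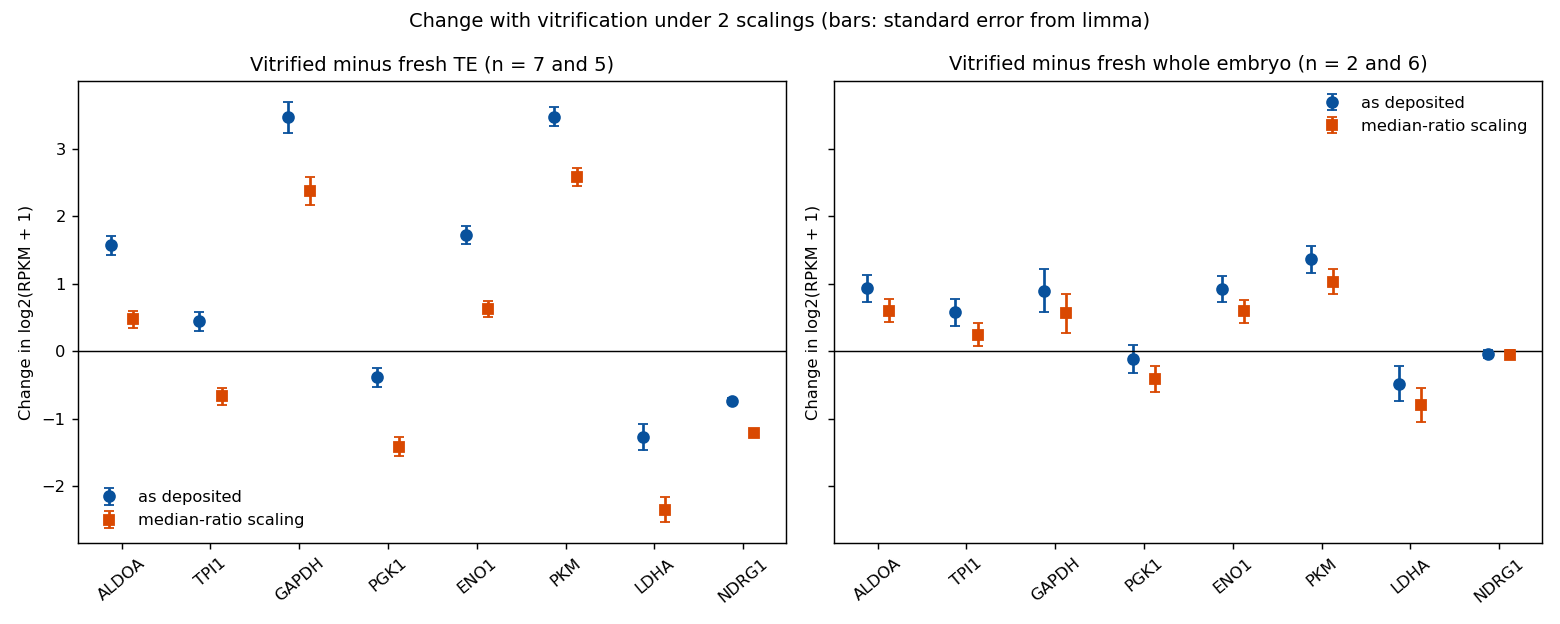
Change of each of the 8 genes with vitrification in log2(RPKM + 1) (vertical axis), in TE (left) and whole embryos (right), as deposited (circles) and with median-ratio scaling (squares), with bars for the standard error from limma. TPI1 crosses zero between the scalings in TE (0.44 and -0.67), while PKM lies above zero and LDHA below zero in both panels under both.

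Whether vitrification went with a different change in whole embryos than in TE was tested as the difference of both changes. It passed for 4 of the 8 genes, 1 higher and 3 lower in whole embryos, against 3.98% and 28.4% of all genes. With listed-gene, median-ratio and quantile scaling 4 were higher and 2 lower, where 9.41%, 14.1% and 19.5% of all genes were higher and 15.7%, 13.1% and 11.3% lower. PKM differed by -2.11 (limma adjusted p = 5.2e-06) and GAPDH by -2.57 (adjusted p = 8.9e-05), their change being smaller in whole embryos. NDRG1 differed by 0.70 (adjusted p = 1.7e-06), its fall being seen in TE. At a mean of 0.123 RPKM in fresh whole embryos, log2(RPKM + 1) left NDRG1 little room for a fall there. A positive difference was thus largely fixed by the scale, also with a vitrified whole embryo left out. ENO1 differed by -0.80 (adjusted p = 0.012), but by -0.037 with median-ratio scaling (adjusted p = 0.92), by 0.21 with quantile normalization (adjusted p = 0.49) and by -0.55 without vitrified whole embryo 1 (adjusted p = 0.14). Without vitrified whole embryo 1 or 2, PKM stayed at -1.80 (adjusted p = 2e-04) or -2.43 (1.7e-05), GAPDH at -2.17 (0.0028) or -2.97 (2.8e-04) and NDRG1 at 0.66 (5.6e-05) or 0.74 (3e-05).

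ALDOA (-0.64, limma adjusted p = 0.052), LDHA (0.79, adjusted p = 0.067), PGK1 (0.27, adjusted p = 0.42) and TPI1 (0.13, adjusted p = 0.71) did not pass as deposited. With median-ratio scaling LDHA passed at 1.55 (adjusted p = 0.0012), PGK1 at 1.002 (adjusted p = 0.0045) and TPI1 at 0.91 (adjusted p = 0.0039), and ALDOA turned to 0.13 (adjusted p = 0.7). ALDOA passed without vitrified whole embryo 2 (-0.89, adjusted p = 0.029) or fresh whole embryo 4 (-0.75, adjusted p = 0.0067), or without fresh TE 4 (-0.69, adjusted p = 0.042), and was at -0.38 (adjusted p = 0.35) without vitrified whole embryo 1.

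Among fresh samples, whole embryos were compared with TE. This comparison shares the fresh TE and fresh whole embryo libraries with those above. GAPDH was 8.92-fold, PKM 5.59-fold, ENO1 2.56-fold and ALDOA 1.89-fold higher in whole embryos as a ratio of means, and NDRG1 7.66-fold lower. Limma called 4 of the 8 genes higher and 1 lower, where 60.0% and 5.97% of all genes were called and the median gene was 2.18-fold higher. The same 5 genes did not overlap between the groups, as 48.4% (higher) and 2.94% (lower) of all genes did not. Listed-gene scaling called 3 higher and 3 lower (38.8% and 15.8% of all genes), median-ratio scaling 3 and 4 (29.9% and 25.2%), and quantile normalization 2 and 4 (23.6% and 34.7%). The changes were 3.07 for GAPDH (adjusted p = 3.5e-09), 2.03 for PKM (1.6e-09), 1.30 for ENO1 (1.9e-07), 0.88 for ALDOA (3.6e-05) and -0.79 for NDRG1 (6.7e-11). ALDOA stood at -0.080 with median-ratio scaling (adjusted p = 0.62), and ENO1 at 0.18 with quantile normalization (adjusted p = 0.25).

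LDHA, PGK1 and TPI1 did not pass between fresh whole embryos and fresh TE as deposited, at 0.026 (limma adjusted p = 0.91), 0.29 (adjusted p = 0.096) and 0.072 (adjusted p = 0.68). Relative to the median gene they were lower in whole embryos: with median-ratio scaling LDHA was at -0.93 (adjusted p = 3.6e-04), PGK1 at -0.63 (adjusted p = 0.0011) and TPI1 at -0.90 (adjusted p = 1e-05). LDHA levels were 34.3 ± 5.30 RPKM in fresh whole embryos (SD, n = 6) and 34.2 ± 9.96 in fresh TE (n = 5).

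Between vitrified whole embryos and vitrified TE the 8 genes lay closer together. Limma called 1 of 8 higher and none lower, where 15.3% and 3.59% of all genes were called, and at an unadjusted p under 0.05 the counts were 3 and 0. None passed with listed-gene, median-ratio or quantile scaling, where 9.29%, 3.1% and 2.59% of all genes were higher and 3.43%, 2.52% and 2.07% lower. LDHA and ENO1 were higher without overlap, 2 of 8 with 0 lower, where 20.4% and 5.94% of all genes were. LDHA was the gene called, at 28.6 and 20.01 RPKM in the vitrified whole embryos and at most 17.0 in vitrified TE (0.81, SE 0.256, adjusted p = 0.034). The call was lost under 12 of 31 alternatives, with adjusted p from 0.023 to 0.27, among them without vitrified whole embryo 1 (0.57, adjusted p = 0.27) and without vitrified whole embryo 2 (1.06, adjusted p = 0.1). It was also lost without vitrified TE 4, 5 or 7, at adjusted p of 0.05, 0.051 and 0.057. ENO1 (0.50, adjusted p = 0.06) and PGK1 (0.56, adjusted p = 0.053) did not pass. ENO1 passed without vitrified whole embryo 1 (0.75, adjusted p = 0.037), fresh whole embryo 3 (adjusted p = 0.043) or 4 (0.041), and PGK1 without fresh whole embryo 4 (0.039), vitrified TE 2 (0.045) or 6 (0.015). PKM was at -0.087 (adjusted p = 0.78), with 31.9 ± 10.1 RPKM in vitrified whole embryos (n = 2) and 33.4 ± 4.65 in vitrified TE (n = 7).

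Across the 4 groups, mean PKM followed the order fresh TE (2.09 RPKM), fresh whole embryos (11.7), vitrified whole embryos (31.9) and vitrified TE (33.4), of which the last 2 neighbours did not differ beyond their spread. GAPDH went from fresh TE (23.9 RPKM) over fresh whole embryos (213) and vitrified TE (267.5) to vitrified whole embryos (389). ENO1 went from 25.6 over 65.6 and 86.5 to 124 RPKM and ALDOA from 31.2 over 58.8 and 93.8 to 113 RPKM, both in the group order of GAPDH. For these 3 genes vitrified TE and vitrified whole embryos did not differ past the threshold. LDHA had another order, with vitrified TE lowest (13.6 RPKM), then vitrified whole embryos (24.3), fresh TE (34.2) and fresh whole embryos (34.3). PGK1 was also lowest in vitrified TE (8.66 RPKM) and then ran over fresh TE (11.4) and vitrified whole embryos (12.96) to fresh whole embryos (14.2). TPI1 ran from 120.002 RPKM in fresh TE to 187 in vitrified whole embryos, a ratio of 1.56, against 1.64 between the extreme groups of PGK1 and 16.3 for GAPDH. NDRG1 separated fresh TE (0.942 RPKM) from the other 3 groups, at 0.0899 to 0.162 RPKM.

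Ratios of 2 genes within a library are not changed by scaling a library with 1 factor, as the listed-gene and median-ratio scalings do, although quantile normalization changes them. The ratio of LDHA to LDHB, which encode the subunits of 1 enzyme, was 1.12 ± 0.218 in fresh TE (SD, n = 5), 0.783 ± 0.292 in vitrified TE (n = 7), 1.24 ± 0.192 in fresh whole embryos (n = 6) and 1.76 and 0.602 in the vitrified whole embryos. It overlapped between groups in each of 4 comparisons. In an exact permutation test (two-sided), p was 0.057 (adjusted p = 0.23 over 4 comparisons) for vitrified against fresh TE, where the ratio was 1.504-fold lower. It gave an exact p = 0.54 (adjusted p = 0.54) for vitrified against fresh whole embryos, where the smallest p the design allows is 0.036. Among fresh samples the exact p was 0.35, and among vitrified ones 0.39 (adjusted p = 0.52 each).

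The other ratios were chosen after their values were seen and are a description. GAPDH to PGK1, enzymes of consecutive steps, stood at 1.23 to 3.33 in fresh TE and at 18.6 to 41.8 in vitrified TE, with 5.90 to 23.3 in fresh whole embryos and 23.3 and 35.9 in the vitrified ones. PKM to LDHA was 0.0522 to 0.0708 in fresh TE, 0.277 to 0.454 in fresh whole embryos, 0.865 and 1.95 in vitrified whole embryos and 1.70 to 4.42 in vitrified TE. Fresh TE was apart from every other library in both ratios. TPI1 to GAPDH was 3.48 to 6.08 in fresh TE, and between 0.422 and 0.852 in the other 15 libraries. Since RPKM is per genomic span, only the differences of a ratio between groups can be read, not its level.

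**Figure D3:**
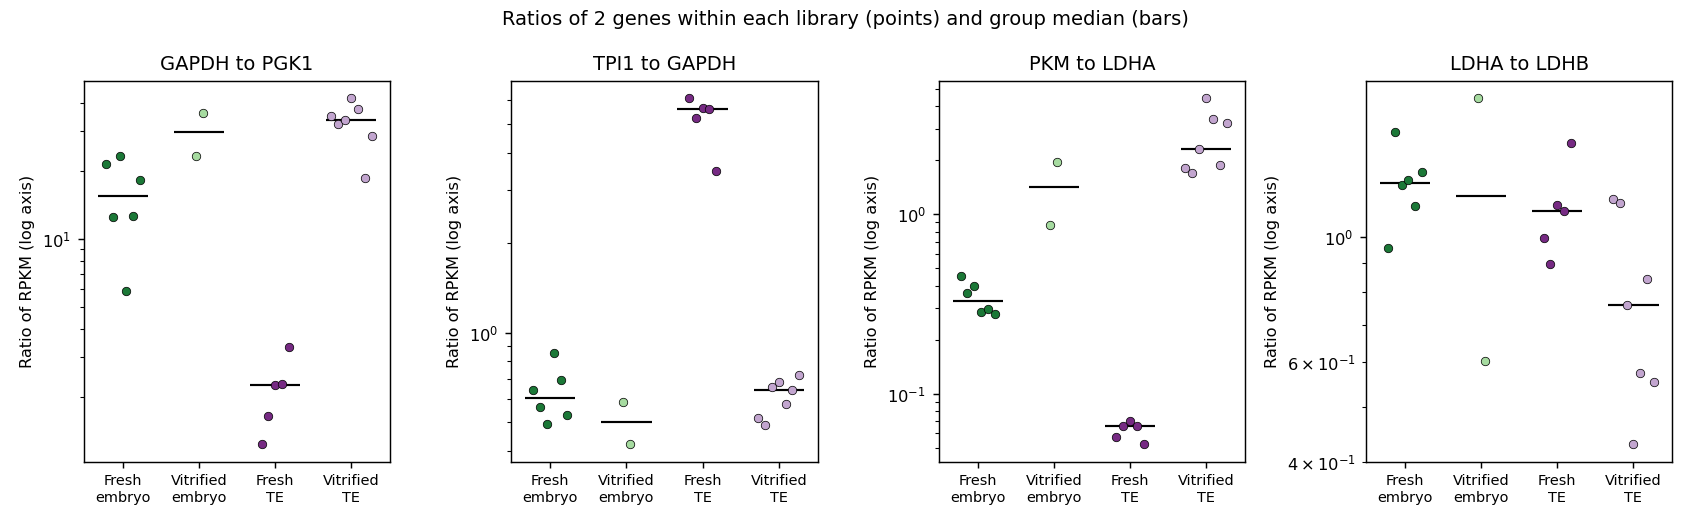
Ratios of the RPKM of 2 genes within each library (points, log axis) in the 4 groups, with the group median as a bar. GAPDH to PGK1 and PKM to LDHA are lowest and TPI1 to GAPDH highest in the 5 fresh TE libraries, while LDHA to LDHB overlaps between the groups.

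Within groups the enzymes did not all vary together. Fresh whole embryo 4 had the lowest level of its group for 4 of 7 enzymes, GAPDH, ENO1, TPI1 and ALDOA, and the highest for PGK1, at 18.6 RPKM. Fresh TE 5 had the highest PKM, GAPDH and LDHA of its group, and the lowest PGK1 and ALDOA. Vitrified TE 2 was highest for GAPDH, LDHA and ENO1 and lowest for PKM. Among the 7 vitrified TE samples the coefficient of variation was 8.36% for ALDOA, 8.40% for TPI1 and 9.73% for ENO1, and 25.01% for LDHA and 26.8% for PGK1.

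Other genes of glucose metabolism were taken from lists of pathway genes and read against the shares of all genes called higher and lower. In vitrified against fresh TE these were 69.0% and 6.66% (35.1% and 27.5% with median-ratio scaling, 26.2% and 38.7% with quantile normalization). In whole embryos they were 26.9% and 3.94% (10.6% and 6.98% with median-ratio scaling). Fewer of all genes were called there without vitrified whole embryo 2 as well. Of 6 glucose transporters tested, 4 rose in vitrified TE and 2 did not pass. With median-ratio scaling 2 were higher and 0 lower, and with quantile normalization 2 and 1. SLC2A3 rose from 17.2 ± 1.47 to 51.5 ± 8.51 RPKM (1.51, limma adjusted p = 3e-07), and the fructose transporter SLC2A5 from 3.79 ± 0.957 to 14.4 ± 4.53. SLC2A1, the widespread glucose transporter, was 0.61 higher as deposited but at -0.23 with median-ratio scaling (adjusted p = 0.1). In whole embryos 0 transporters passed in limma and 1 had an unadjusted p under 0.05. SLC2A3 was at -0.19 there (limma adjusted p = 0.6), at -0.81 without vitrified whole embryo 1 and at 0.44 without vitrified whole embryo 2.

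Of 11 genes of upper glycolysis, from hexokinases to phosphofructokinase and its regulators, 10 rose and 1 fell in vitrified TE. With median-ratio scaling 4 were higher and 2 lower, and with quantile normalization 3 and 3. TIGAR, a phosphatase that lowers fructose bisphosphate, rose by 1.06 (limma adjusted p = 8.1e-08), from 0.231 ± 0.0462 to 1.59 ± 0.427 RPKM, and PFKL, the liver-type phosphofructokinase, by 1.15. In whole embryos 5 of the 11 rose, 2 with median-ratio scaling and 2 without vitrified whole embryo 2. TIGAR rose there by 1.14 (adjusted p = 5.8e-05), and passed without either vitrified whole embryo (adjusted p = 1.4e-04 and 0.0061). PFKL rose by 0.77 (adjusted p = 0.0024), a call lost with median-ratio scaling (adjusted p = 0.059), quantile normalization (0.09) and without vitrified whole embryo 2 (0.65, adjusted p = 0.074). Isozymes and other enzymes of lower glycolysis numbered 8. Of these 1 rose (ENO3, 0.76), 2 fell (LDHB, and PGAM2 by 0.65 from 0.841 ± 0.338 RPKM) and 5 did not pass, while 0 were higher and 4 or 5 lower with median-ratio scaling or quantile normalization. ENO3 was at -0.0082 with quantile normalization.

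Genes of lactate and pyruvate handling were 9 higher and 2 lower of 16, with 4 and 8 under median-ratio scaling and 4 and 10 under quantile normalization. BSG, the chaperone of lactate transporters, rose from 37.0 ± 5.58 to 152 ± 30.4 RPKM (1.996, limma adjusted p = 4.7e-10), PDHB, of pyruvate dehydrogenase, by 1.53, and pyruvate carboxylase (PC) by 0.60. Of 16 genes of the tricarboxylic acid cycle 15 rose and 1 fell, against 8 and 4 with median-ratio scaling and 7 and 4 with quantile normalization. Citrate synthase (CS) rose from 1.94 ± 0.330 to 11.2 ± 0.978 RPKM, and SDHA, a subunit of succinate dehydrogenase, by 1.30. In whole embryos 7 of these 16 rose, and 3 did with median-ratio scaling, 6 without vitrified whole embryo 1 and 3 without vitrified whole embryo 2. SDHA rose by 0.70 (adjusted p = 1.3e-04, and 4.5e-05 or 0.014 without vitrified whole embryo 1 or 2), while CS was at 0.24 (adjusted p = 0.14).

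In the pentose phosphate pathway, which makes NADPH, 6 of 7 rose in vitrified TE, PGD from 3.101 ± 0.254 to 9.10 ± 1.17 RPKM, and 4 were higher and 2 lower with either median-ratio scaling or quantile normalization. Among 10 genes of gluconeogenesis and glycogen 7 rose and 1 fell. With median-ratio scaling 4 were higher and 2 lower, and with quantile normalization 2 and 4. G6PC3, a glucose phosphatase, rose from 0.612 ± 0.150 to 8.30 ± 0.960 RPKM (2.53, limma adjusted p = 5.8e-13). UGP2, which makes the sugar donor of glycogen, fell by 0.48 in TE (adjusted p = 1.5e-06) and by 0.31 in whole embryos (adjusted p = 0.013), a call lost without vitrified whole embryo 2 (-0.22, adjusted p = 0.23).

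The hypoxia genes were called in both directions. Of 22 hypoxia-inducible genes outside glycolysis 14 rose, 2 fell and 6 did not pass in vitrified TE, near the share of all genes. With median-ratio scaling 4 were higher and 7 lower, and with quantile normalization 3 and 10. BNIP3, a mitophagy receptor, rose from 0.556 ± 0.124 to 5.37 ± 0.933 RPKM (2.03, limma adjusted p = 2.6e-08) and ADM, a secreted peptide, from 1.22 ± 0.623 to 10.7 ± 2.76 (2.40, adjusted p = 9.1e-08). In whole embryos 4 of the 22 rose and 2 fell, against 1 and 4 with median-ratio scaling and 1 and 1 without vitrified whole embryo 2. BNIP3 rose there by 1.32 (adjusted p = 0.0014), a call lost without vitrified whole embryo 2 (1.03, adjusted p = 0.067). ADM rose by 1.41 (adjusted p = 0.0056), a call lost with median-ratio scaling (adjusted p = 0.057), quantile normalization (0.074) and without vitrified whole embryo 2 (1.49, adjusted p = 0.053). Of 8 genes of the hypoxia factor and its regulators 5 rose and 3 did not pass in TE, while median-ratio scaling gave 1 and 3, and quantile normalization 0 and 3, in the order higher and lower. EGLN1, an oxygen-sensing hydroxylase that marks the factor for decay, was 0.51 higher in TE (adjusted p = 0.0037, but 0.37 with median-ratio scaling). With 0 to 8 reads per TE library, EGLN1 passed the filter only through whole embryos, and its listed span is only 0.852 kb. In whole embryos EGLN1 was 0.81 higher (adjusted p = 0.0051). The latter call was lost with median-ratio scaling (adjusted p = 0.12), quantile normalization (0.18) and without vitrified whole embryo 2 (0.76, adjusted p = 0.078). NDRG3, the only other family member that passed the filter, was 0.061 higher (adjusted p = 0.0027) as deposited and at -0.069 with median-ratio scaling (adjusted p = 0.0039).

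**Figure D4:**
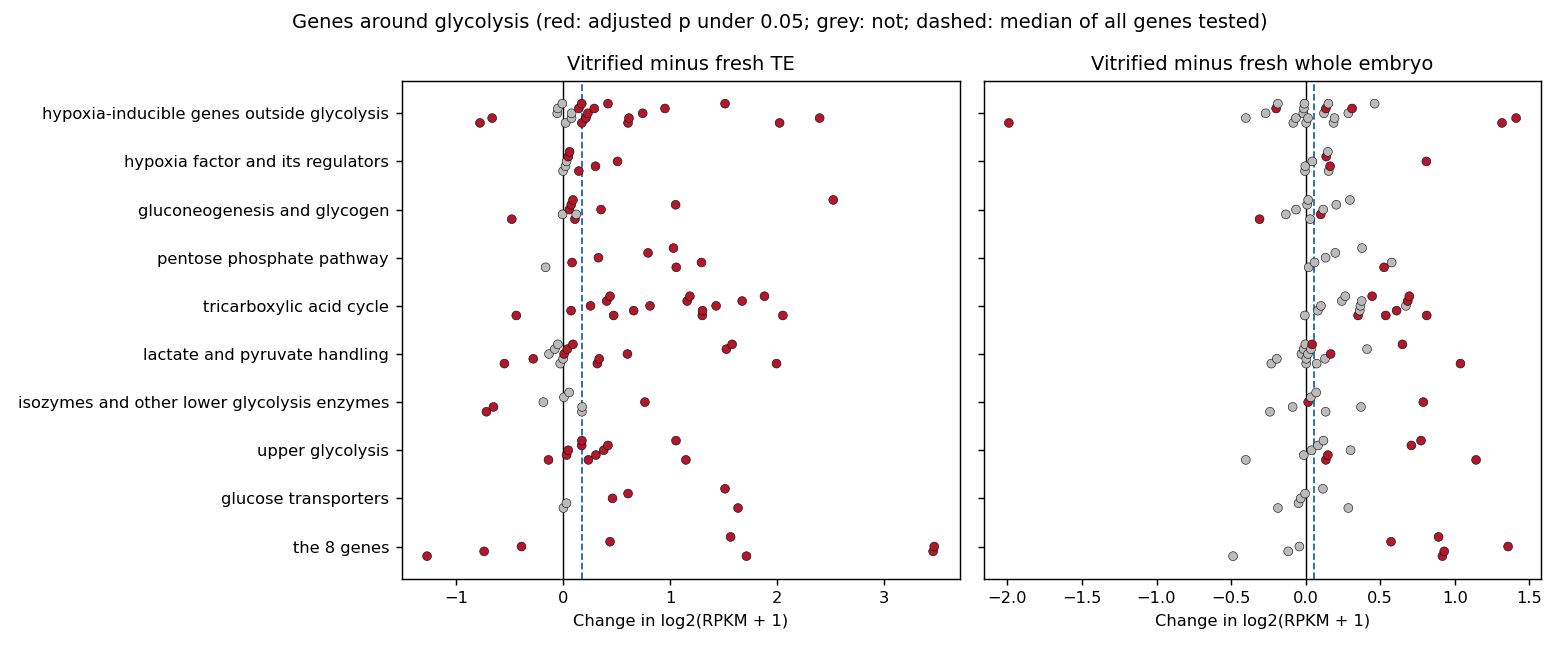
Change with vitrification in log2(RPKM + 1) (horizontal axis) of each tested gene of 9 pathway lists and of the 8 genes (points), in TE (left) and whole embryos (right), red where the limma adjusted p is under 0.05, with the median of all genes tested as a dashed line. PKM and GAPDH lie furthest right in TE, at 3.47 and 3.46, and most points of the tricarboxylic acid cycle lie right of the line.

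Genes whose log2 levels ran most like those of the 8 genes over the 20 libraries were looked up among 1422 genes with a mean of at least 5 RPKM. The values are Pearson correlations, which the difference of fresh TE from the other libraries and their shared scaling enter. Nearest to PKM was SHMT2 (0.990), to GAPDH NDUFS8 (0.993), to ENO1 AURKB (0.991) and to ALDOA RANBP1 (0.985). LDHA was nearest to TOMM5 (0.913), PGK1 to PDCD6 (0.897) and TPI1 to GALT (0.909). NDRG1 was nearest to PRXL2A (0.952), TGM1 (0.937) and PAG2 (0.933), a pregnancy-associated glycoprotein whose family holds near-identical copies.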

How the data were processed

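Per the submitters' processing notes, FastQC, STAR 2.5.3a, the UMD3.1 assembly and Partek were used. Aligner options, counting rule, strand and gene selection were not given in the sources used here. Values deposited by the authors are RPKM with an offset of 0.01, a unit inferred from the values: less the offset and times the genomic span, 94.5 to 95.8% of values under 1000 reads lay within 0.1 of a whole multiple of 1 read. Depth was 6.01 to 14.5 M reads per library. Listed genes accounted for 2.03 to 8.73 M.

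The offset was subtracted and log2(RPKM + 1) taken. Genes with at least 10 reads in at least 2 libraries (10599) went into limma 3.58.1 under R 4.3.3 (eBayes with trend and robust fitting, statmod 1.5.0), with a mean per group, a shared spread and Benjamini-Hochberg adjustment over all genes at a threshold of 0.05. The script was tested on simulated data. Values were normalized, so no count test was run. Alternatives were listed-gene, median-ratio and quantile scaling, a pseudocount of 0.1, no filter, a filter of 1 RPKM, only the groups compared, plain eBayes, array weights, a replicate block, averaged near-identical libraries and each library left out. Libraries were called near-identical at a chi-square per degree of freedom under 3, set with earlier values known.

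The 8 genes and all lists were chosen with earlier results of these data known. Beside the 8 genes and LDHB, the text names from up to 3 genes per pathway list with the smallest p in TE, the 3 most correlated genes per member, and GATA3, KRT8, POU5F1, NANOG, SOX2, GATA6 and SOX17 as markers. Some other markers were not analysed here. Samples were not paired by replicate number, as the labels do not say that equal numbers share an embryo. Correlations of deviations of same-numbered samples ran from -0.19 to 0.31, with too few samples to exclude a pairing. One gene that the rule names is not reported here.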

Additional observations from a re-analysis of the deposited data

Results flagged for a closer look

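In 3 of 30 groups of 4 to 10 samples examined, 1 sample lay far from the others of its group, where chance gives about 1 in 20. LDHA of fresh TE 5 was the highest of its group, at 51.8 RPKM, with the other 4 between 27.0 and 31.8. PGK1 of fresh whole embryo 4 was the highest of its group, at 18.6 RPKM. TPI1 of vitrified TE 3 was the highest of its group, at 191 RPKM.

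The change with vitrification differed between whole embryos and TE in limma's test of the difference (whole embryo minus TE) for PKM (-2.11), GAPDH (-2.57), ENO1 (-0.80) and NDRG1 (0.70). The ENO1 difference did not pass with listed-gene, median-ratio or quantile scaling. For NDRG1 the low level in fresh whole embryos left little room for a fall there, so its difference was largely fixed by the scale.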

How the results depend on the processing

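Direction and call of PKM, GAPDH, ENO1, ALDOA, LDHA and NDRG1 in vitrified against fresh TE were kept under every alternative run (the filter of 1 RPKM left NDRG1 out). Where values changed, the cause was not tested unless the alternative itself had fewer genes or samples.

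Scaling turned directions. In TE, TPI1 turned to -0.19 with listed-gene, -0.67 with median-ratio and -0.026 with quantile scaling. Between fresh whole embryos and fresh TE, in the same order, LDHA turned to -0.61, -0.93 and -1.02, PGK1 to -0.31, -0.63 and -0.75, and TPI1 to -0.57, -0.90 and -0.69. ALDOA turned there to -0.080 and -0.20 with median-ratio and quantile scaling, and LDHA to -0.078 with near-identical libraries averaged. In the difference of effects ALDOA turned to 0.13 and 0.28 under median-ratio and quantile scaling and ENO1 to 0.21 under the latter.

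Members called higher in vitrified whole embryos fell from 5 to 3 with median-ratio scaling, no filter, only the groups compared or array weights, and 1 was lower with median-ratio scaling. In the difference of effects 4 were higher, in place of 1, under each of the 3 scalings. Between fresh whole embryos and TE 2 were higher, in place of 4, with quantile scaling, and 3, 4 and 4 lower, in place of 1, under the 3 scalings (0 with the filter of 1 RPKM). In vitrified whole embryos against TE the 1 higher became 0 under the 3 scalings, no filter, only the groups compared and array weights.

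The filter of 1 RPKM left 4989 genes to test, in place of 10599, so its counts are out of fewer genes. Genes past the threshold were 8017 in TE and 4112 with the filter of 1 RPKM, and 6997 and 3910 between fresh whole embryos and TE. In whole embryos they were 3270, and 1863 (median ratio), 1571 (quantile), 1711 (1 RPKM), 2157 (only the groups compared) and 1763 (array weights). Between vitrified whole embryos and TE they were 1998, and 596, 494, 937, 786 and 175 in that order. Among higher and lower calls in TE the split was 7311 and 706 as deposited, 5214 and 1666, 3720 and 2920, and 2776 and 4100 under the 3 scalings.

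The replicate block took a shared number as a pair, although the labels do not say that equal numbers share an embryo. Under the replicate block members higher in vitrified whole embryos were 4 (GAPDH adjusted p = 0.068), those between vitrified whole embryos and TE 0, genes past the threshold there 790, and LDHA between fresh whole embryos and TE was at -0.0071.

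Leaving out 1 library at a time, members higher in vitrified whole embryos ranged from 1 to 5 (1 without vitrified whole embryo 2) and genes past the threshold from 1137 to 3577. Between vitrified whole embryos and TE they ranged from 0 to 3 and from 139 to 2336. The log2 ratio of LDHA to LDHB ranged from -1.03 to 0.52 for whole embryos (positive without vitrified whole embryo 2) and from -0.29 to 1.26 between vitrified whole embryos and TE (negative without vitrified whole embryo 1). TPI1 ranged from -0.035 to 0.30 in the difference of effects and from -0.0095 to 0.15 between fresh whole embryos and TE, where LDHA ranged from -0.047 to 0.18. PKM ranged from -0.41 to 0.23 and ALDOA from -0.0085 to 0.50 between vitrified whole embryos and TE. Depth limits NDRG1 most, at 31 to 406 reads per library.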
